A study of Homo sapiens with 2 samples.

Results

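The interleukin 1 gene cluster on chromosome 2 was taken as positions 113525000 to 113900000 of the human genome build hg19, a window of 375 kb with 9 genes: IL1A, IL1B, IL37, IL36G, IL36A, IL36B, IL36RN, IL1F10 and IL1RN. All regions of the deposited lists that overlapped this window by at least 1 bp were its members, which gave 3 of 3156 regions. Of these, 2 came from the 364 broad regions and 1 from the 2792 narrow regions. The regions were called by chromatin immunoprecipitation and sequencing of HMGB2, a chromatin protein of the high mobility group that bends the DNA it binds. The cells used were IMR90, a fibroblast culture from human lung. There was 1 library of RAS-induced senescent cells, into which the oncogene RAS had been introduced by infection, and 1 library of growing cells as the control. The labels gave day 2, culture in 2% oxygen, the same rabbit antibody and 10 ng of precipitated DNA for both.

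Both lists compare the 2 libraries, and the list names put senescent before growing. A higher signal in senescent cells was therefore assumed for every region here, and the lists hold nothing to test this. The lists hold region names and positions, with no score, fold or read number, so the depth of the libraries and the size of a difference are unknown. Each condition had 1 library, so there was no replicate to check a difference against. A gene without a region is one where no region was called, which does not show that HMGB2 was absent there. The base from which positions count is not given, so a start may be off by 1 bp.

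The genes of the cluster encode cytokines of the interleukin 1 family and their natural antagonists. IL1A and IL1B encode interleukin 1 alpha and beta, which act on the same receptor and switch on NF-kB. Interleukin 1 alpha is active as its precursor and is displayed on the surface of senescent fibroblasts, where it helps to sustain the secretory phenotype, the release of cytokines, chemokines and proteases by senescent cells. Interleukin 1 beta is made as an inactive precursor that caspase 1 cleaves in the inflammasome. IL1RN encodes the receptor antagonist that blocks both. IL36A, IL36B and IL36G encode agonists of a related receptor, IL36RN encodes its antagonist, IL37 a cytokine that dampens inflammation, and IL1F10 a family member that has been described as an antagonist.

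All 3 regions lay at IL1B. The 2 broad regions ran over most of the gene and stopped short of its start, and the narrow region lay just beyond its end. The other 8 genes, IL1A among them, had no region in either list. With the bounds of IL1B at 113587337 and 113594356 (7019 bp), the broad regions covered 5725 bp of the gene, or 81.6%. IL1B lies on the minus strand, so its start is the higher of these positions.

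The first broad region spanned 6140 bp, from 113586040 to 113592180. Counted from the start of IL1B in the direction of transcription, it began 2176 bp into the gene, covered 4843 bp of it through to its end, and went on for 1297 bp past the end. It thus had 78.9% of its width in the gene. The second broad region spanned 882 bp, from 113592975 to 113593857, and lay wholly inside the gene, 499 to 1381 bp after the start. A gap of 795 bp separated the regions, which together covered 7022 bp, or 89.8%, of the 7817 bp from the outer edge of one to the outer edge of the other.

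The narrow region, from 113586578 to 113586842, had the 264 bp that all 2792 narrow regions have. It lay inside the 6140 bp broad region but outside the gene, 495 to 759 bp past the end of IL1B. No narrow region lay in the body of IL1B. Exons, introns and untranslated parts were not placed, because an hg19 annotation of them was not used here.

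**Figure D1:**
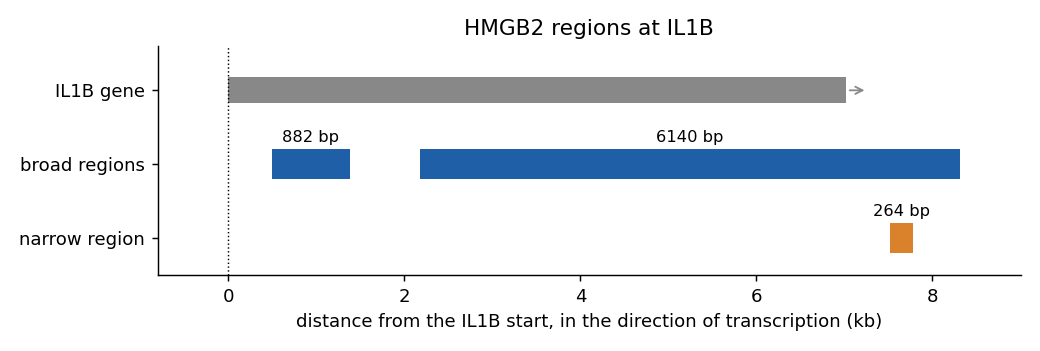
Positions of the HMGB2 regions at IL1B, in kb from the start of the gene in the direction of transcription. The grey bar is the gene, blue bars are the broad regions and the orange bar is the narrow region. The broad regions leave the first 499 bp of the gene and a gap of 795 bp uncovered, and the narrow region lies 495 to 759 bp past the end of the gene.

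The nearest broad region thus stayed 499 bp inside the start of IL1B, and no region of either list reached the start or the sequence before it. At IL1A, whose start faces the end of IL1B, the nearest region was the same 6140 bp broad region, with its edge 43.1 kb upstream. The 250 bases before the RefSeq starts of both genes are shown to give the sequence at the starts, where no region was called. They are from RefSeq in the build GRCh38.p14, 5′ to 3′ on the minus strand, at chr2:112836780-112837029 for IL1B and chr2:112784494-112784743 for IL1A, and no position was converted to hg19. RefSeq lists 2 starts for IL1A, and the one farther upstream is shown. It need not be the hg19 start used for the distances, since the length of IL1A differs between the annotations by more than the 250 bases shown. Capitals mark matches on either strand to the C/EBP motif TTGCNNAA, the AP-1 motif TGANTCA and the TATA motif TATAAA. The NF-kB motif was searched too.
IL1B: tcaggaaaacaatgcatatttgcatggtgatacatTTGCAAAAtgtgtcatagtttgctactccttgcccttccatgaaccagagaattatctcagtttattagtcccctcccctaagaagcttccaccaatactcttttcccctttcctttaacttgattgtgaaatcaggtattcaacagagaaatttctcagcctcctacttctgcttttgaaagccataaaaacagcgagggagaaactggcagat
IL1A: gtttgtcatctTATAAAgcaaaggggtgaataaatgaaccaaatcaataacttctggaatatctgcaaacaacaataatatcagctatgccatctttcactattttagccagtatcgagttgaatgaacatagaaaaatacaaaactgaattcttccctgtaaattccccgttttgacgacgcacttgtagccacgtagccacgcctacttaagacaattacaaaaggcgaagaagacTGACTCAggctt

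The IL1B stretch held 1 C/EBP match, 215 to 208 bases before the start, and no match to the other motifs. The IL1A stretch shown held 1 AP-1 match at 12 to 6 bases and 1 TATA match at 239 to 234 bases before the start. The stretch before the other IL1A start, which overlaps it, held 2 AP-1 matches, no TATA match and 42.0% C and G. Of 35114 such stretches in the table, 9.05% held a C/EBP match, 6.57% an AP-1 match, 10.7% a TATA match and 5.21% an NF-kB match. Only full matches were counted, wherever they lay in a stretch, so a variant that differs by a letter was not marked. Such matches are letters in a window and do not show binding. C and G made up 40.0% of the IL1B and 37.6% of the IL1A stretch shown, against a median of 58.0% over all stretches, with quartiles at 46.4 and 68.0%. The table held 8 of the 9 genes, all but IL36B, with 14 annotated starts in all. Over these 14 stretches the C and G content ran from 34.4 to 59.6%, and 4 held a TATA, 3 an AP-1, 2 a C/EBP and 1 an NF-kB match.

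IL1A, at 113531492 to 113542971, had no broad and no narrow region in its body or within 10 kb of it. The stretch between its start and the end of IL1B measures 44.4 kb, and the broad region at IL1B took up only the last 1297 bp of it. IL1RN, at 113875470 to 113891593, had no region in its body or within 10 kb either, and the nearest region lay 282 kb before it. These bounds differ between annotations. With both end bases counted, IL1B measures 7029 bp in the RefSeq table of GRCh38.p14 against 7020 bp here, IL1A 10569 against 11480 bp and IL1RN 34655 against 16124 bp. These differences in length are smaller than the 43.1 and 282 kb from IL1A and IL1RN to the nearest region.

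The other 6 genes were placed by order only, since their hg19 bounds were not used here. In the RefSeq table IL37, IL36G, IL36A, IL36B, IL36RN and IL1F10 follow each other between IL1B and IL1RN. The 281 kb between the starts of IL1B and IL1RN in hg19 held no region of either list. With the same order in hg19, none of the agonists IL36A, IL36B and IL36G, the antagonist IL36RN, or IL37 and IL1F10 had a region. The RefSeq table also lists 9 other genes from IL1A to IL1RN, none of them protein-coding, among them the long noncoding RNA AMANZI, which follows IL1B in the table. Their hg19 positions were not used here either.

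**Figure D2:**
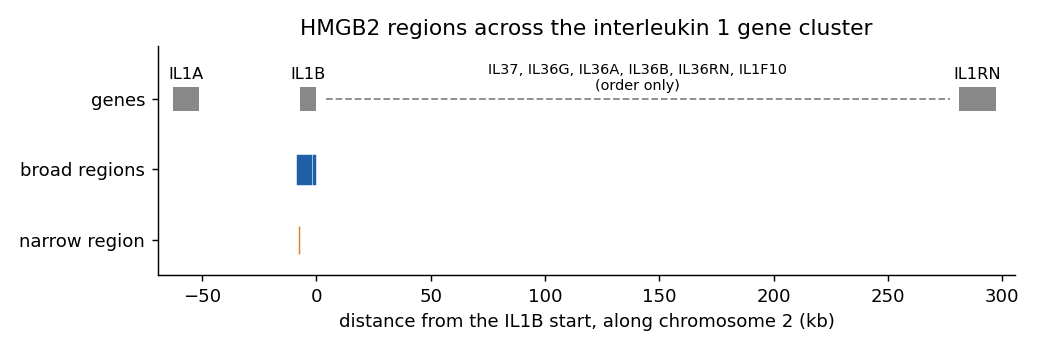
Positions of the HMGB2 regions across the window of 375 kb, in kb from the start of IL1B along chromosome 2. Grey bars are genes with hg19 bounds, the dashed line stands for the 6 genes known by order only, blue bars are broad regions and the orange bar is the narrow region. All 3 regions sit at IL1B, and nothing lies at IL1A or between IL1B and IL1RN.

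Both broad regions at IL1B stood alone on a long stretch of chromosome 2. The chromosome held 22 broad regions, of which the 2 at IL1B were the only ones wider than 500 bp, the smallest width in the list, and the other 20 all had that width. The nearest other broad regions lay 3.11 Mb before and 10.3 Mb after those at IL1B, at places 208 and 209 of the list. Narrow regions were more frequent, with 222 on the chromosome, but the nearest ones to IL1B were 550 kb before and 2.07 Mb after it, at places 908 and 631. The narrow region at IL1B was listed before the other 221 on its chromosome.

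The density of broad regions in the window was 5.33 per Mb, with an exact Poisson 95% interval of 0.646 to 19.3, and that over the genome was 0.118. For broad regions over 500 bp, called wide from here on, the genome had 0.0171 per Mb. The window held 2.67 narrow regions per Mb (0.0675 to 14.9), against 0.902 over the genome, which lies inside the interval. The interval for broad regions treats the 2 as independent, but they lie 795 bp apart and count as 1 when merged within 1 kb. A count of 1 gives 0.0675 to 14.9 per Mb, as for the narrow region. The genome density of all broad regions, 0.118, lies inside that interval, and that of wide regions, 0.0171, lies below it. The intervals cover counting error only, and the window was chosen with its regions known, so they are no test of the density. When the genome was divided into 8245 windows of 375 kb, 3.92% held a broad region, 0.461% a wide one and 27.5% a narrow one. At least 2 wide regions were found in 0.133% of them, and a wide together with a narrow region in 0.315%. Broad regions covered 1.87% of the cluster window and 0.00758% of the genome.

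The region of 6140 bp was the widest of the broad list and stood at place 2. The next widest were 3858 bp on chromosome 6 (30708362 to 30712220, place 1), 3788 bp on chromosome 4 (74606793 to 74610581, place 3), 3544 bp on chromosome 10 (75675285 to 75678829, place 6) and 3436 bp on chromosome 1 (150539847 to 150543283, place 10). The IL1B region was thus 1.59 times as wide as the next. The second region at IL1B, of 882 bp, stood at place 25 and was 32nd by width among the 53 wide regions, whose median was 1048 bp. Its neighbours at places 22 to 28 were 764 to 1348 bp wide. Wider regions mostly stood earlier in the list, and the 24 places before the 882 bp region all held wider ones. Place and width did not run strictly in step, and the sources used here do not explain the order. The first 25 places all held wide regions, and the last wide region stood at place 76.

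**Figure D3:**
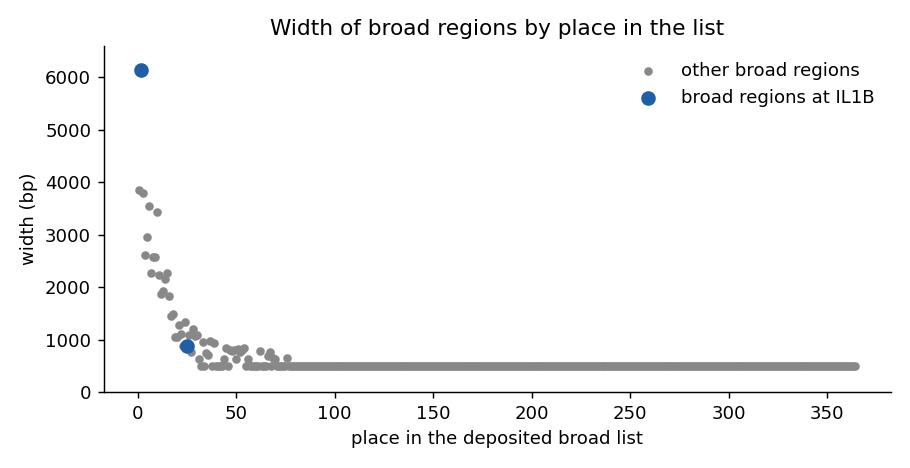
Width in bp of each of the 364 broad regions against its place in the deposited list. Blue points are the 2 regions at IL1B and grey points all others. The region of 6140 bp at place 2 stands above the next, of 3858 bp, and the region of 882 bp at place 25 lies among others of similar width.

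IL1B was not the only place where wide regions stood close together. Of the 53 wide regions, 6 pairs of neighbours were separated by less than 2 kb, and the gap of 795 bp at IL1B was the second smallest after 727 bp on chromosome 11. Among the 9 pairs within 5 kb, that at IL1B had the largest summed width, 7022 bp, followed by 6122 bp on chromosome 10 and 5220 bp on chromosome 19. The IL1B regions made up 8.86% of the summed width of wide regions and 2.99% of that of all broad regions.

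Over stretches of up to 375 kb, IL1B ranked after only 2 others by summed broad width. A stretch on chromosome 4, from 74606793 to 74962673, held 7370 bp in 4 regions, and one on chromosome 11, from 102658722 to 102707064, held 7332 bp in 4 regions. These sums are close to the 7022 bp at IL1B, but the regions of chromosome 4 were spread over 356 kb and those of chromosome 11 over 48.3 kb, so that 2.07 and 15.2% of each span were covered, against 89.8% of the 7.82 kb at IL1B. The stretches on chromosomes 10, 19 and 1 were like IL1B in form, each with 2 regions in 5.40 to 7.28 kb and 78.9 to 84.1% of the span covered. Unlike at IL1B, none of these 3 held a narrow region. No test was made of these differences, since each is a single place in 1 pair of libraries.

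**Figure D4:**
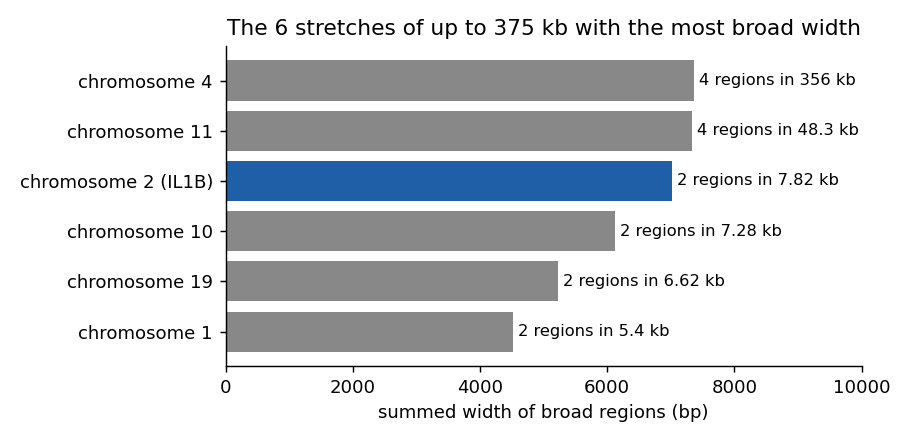
Summed width in bp of broad regions in the 6 stretches of up to 375 kb with the most. The blue bar is IL1B and grey bars are other chromosomes, with the number of regions and the span beside each bar. The sum at IL1B, 7022 bp, is close to those on chromosomes 4 and 11 but lies within 7.82 kb.

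The narrow region at IL1B stood at place 3 of 2792. The first 6 narrow regions all lay in wide regions, those at places 1 and 2 in the wide regions of 3858 bp on chromosome 6 and 2624 bp on chromosome 16. Only 1 of the 2 broad regions at IL1B overlapped a narrow region by at least 1 bp, and 21 of the 53 wide regions did. Both lists come from the same libraries, so their overlap is no independent agreement. The centre of the narrow region lay 670 bp from the outer edge of the 6140 bp region and 5470 bp from its other edge, or 10.9% of the width from the nearer edge. Of the 22 narrow regions that overlapped a wide region, 2 only crossed its edge, at 4.81 and 13.5%, and 20 lay wholly inside. For these 20 the distance in percent of the width had a median of 45.8%, where 50% is the middle, and that at IL1B was the lowest, before one of 17.4%. In bp it was not, since 11 of the 20 centres, IL1B included, lay 670 bp or less from an edge. In the least wide of these regions, a narrow region of 264 bp wholly inside cannot reach 10.9%. The low rank at IL1B by percent thus depends partly on the width of its broad region.

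**Figure D5:**
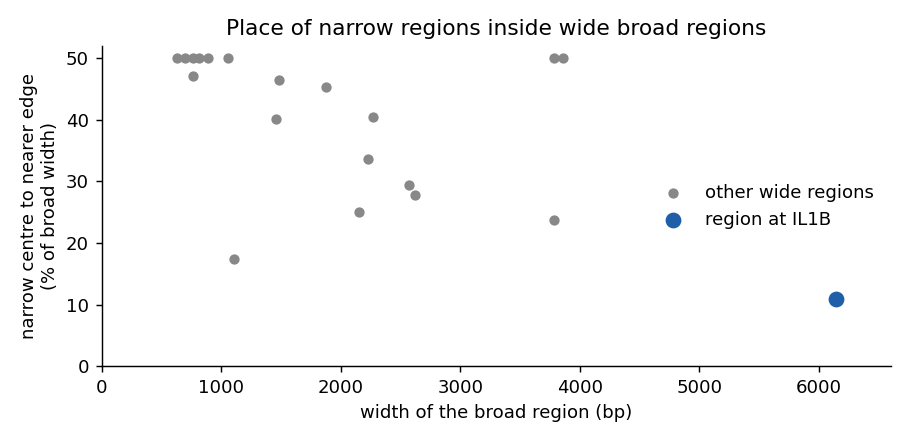
Distance from the centre of each narrow region to the nearer edge of the wide region that wholly holds it, in percent of the wide region's width, against that width in bp. The blue point is the narrow region at IL1B and grey points are the other 19 narrow regions wholly inside wide regions. At IL1B the narrow region lies 10.9% from an edge, whereas the median is 45.8%. The lowest percent possible is higher in less wide regions, since all narrow regions have the same width.

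Further genes of the interleukin 1 family and its pathways outside the cluster were compared by chromosome band. They were ligands, receptors and decoys, signalling and processing genes, and known interleukin 1 response genes. Regions took their band from hg19 and genes from GRCh38, and bands were matched by name. The cluster itself shows the limit of this join: IL1A, IL1B and IL1RN lie in 2q13 by their hg19 bounds, but all 9 genes fall in 2q14.1 in GRCh38. A band also spans many genes, so a region in it need not lie at the gene named. Of 43 pathway genes, 20 lay in a band with a broad region (46.5%), against 41.6% of 20037 protein-coding genes, and all 43 in a band with a narrow region, against 92.7%. Both shares were near the background. Wide regions lay in the bands of 10 genes (23.3%), against 10.3% of protein-coding genes. Of these 10, 8 were among the 11 response genes, which were chosen with the results for most of them known. The other groups gave 1 of 9 receptors and decoys (11.1%), 1 of 14 signalling genes (7.14%), 0 of 7 processing genes and 0 of 2 ligands. Outside the response genes the shares were thus near or below the background. The 43 genes lay in 33 bands, and the 10 in 7, so genes of the same band are not independent.

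Of the 11 response genes, which interleukin 1 is known to induce, 8 had a wide region in their band: CXCL8 and CXCL1, which attract neutrophils, ICAM1, an adhesion molecule, the cytokines CSF3 and LIF, the matrix metalloproteinases MMP1 and MMP3, and the transcription factor CEBPB. The band of ICAM1, 19p13.2, differs in length between hg19 and GRCh38, so its match by name is less certain. Among the 10 response genes whose bands have the same length in both builds, 7 had a wide region in their band. The band of IL6 held broad regions of 500 bp only, and those of PTGS2 and CCL2 held none. These response genes were chosen with the results for most of them known, so their count is no independent support. The 9 receptors and decoys had 1 gene in a band with a wide region, SIGIRR, an inhibitory receptor. The accessory receptor chain IL1RAP and the binding protein IL18BP had only broad regions of 500 bp in their bands. The receptor genes IL1R1, IL1RL1, IL1RL2, IL18R1 and IL18RAP share the band 2q12.1, which had no broad region.

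Among 14 signalling genes only TOLLIP, an inhibitor of receptor signalling, had a wide region in its band, 11p15.5. SIGIRR and the RAS gene HRAS lie in the same band, and whether a wide region lies at any of these genes was not tested. The kinase IRAK1, the ubiquitin ligase TRAF6, the kinase MAP3K7 and its partner TAB2, and the NF-kB subunit RELA had only broad regions of 500 bp in their bands. The 8 others, the adaptor MYD88 among them, lay in bands with none. Of 7 processing genes, the inflammasome sensor NLRP3 and the protease CAPN1, which cleaves the interleukin 1 alpha precursor, had only broad regions of 500 bp in their bands. The caspase gene CASP1, whose product cleaves the interleukin 1 beta precursor, lay in a band with none, as did the ligand genes IL18 and IL33.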

How the data were processed

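HMGB2 was measured by chromatin immunoprecipitation and sequencing in 1 senescent and 1 growing IMR90 library, grouped by the cell condition in the labels. Per the submitters' processing notes, Bowtie 0.12.9, HOMER 1.0 and hg19 were used, with no role given. Calling settings, any input control and read numbers are not stated. The deposited lists hold region names and base positions per the file headers, with no other columns, and depth is unknown. The numbers in the names were not used, since their meaning is not stated.

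The members, gene lists and comparisons were chosen with earlier results of these data known. The hg19 bounds of IL1A, IL1B and IL1RN came with the definition of the cluster. Width was end minus start. Equal windows used hg19 chromosome lengths from GenomeInfoDb 1.38.1, with only full windows kept. Bands came from circlize 0.4.16, and gene names, order and lengths from a RefSeq table of GRCh38.p14, which matched all 9 members and all 43 pathway genes. Named genes were all 9 members and the pathway genes in bands with a broad region (20), and regions were those of the window and the 5 widest. Others named were chosen after their values were seen. Counting was tested on simulated data, where 60 of 60 planted windows were recovered among 266. Computation used Python 3.11.15, numpy 2.4.6, pandas 2.3.3, scipy 1.17.1, matplotlib 3.10.9 and R 4.3.3. Alternatives varied the window, merging, gene margin, overlap and the list used.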

Additional observations from a re-analysis of the deposited data

How the results depend on the processing

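The broad count of the cluster stayed at 2, and the narrow count at 1, from IL1A to IL1RN only, with the window widened by 100 kb on each side, in the first 50% of each list, and with regions wholly inside the window. With regions within 1 or 5 kb merged, the broad count became 1 by construction, since the gap at IL1B is 795 bp, and the narrow count stayed at 1. With 5 or 10 kb added to the gene, the narrow region counted for IL1B (1 gene against 0), and the broad cover rose from 5725 to 7022 bp. Of the 2 broad regions, 1 held the narrow region also when 50% of the narrow region had to overlap or when 1 kb was allowed between them. Windows of 100 kb held a broad region in 1.08%, a wide one in 0.136% and a narrow one in 8.51%, and windows of 1 Mb in 9.78, 1.17 and 55.6%, which follows from their length. Windows shifted along the chromosome, or on autosomes only, gave 3.82 and 3.99% for broad, 0.450 and 0.495% for wide and 27.2 and 27.8% for narrow regions. The pathway count of 20 became 10 with wide regions only and 43 with narrow regions, because each list marks another number of bands. Sequence composition of the regions was not run, as no hg19 sequence was used here. No paired analysis was possible because each condition has 1 library. Depth is unknown, so regions of weak signal can have been missed.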
